A study of Mus musculus with 8 samples.

Results

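The genes described here encode the proteins that carry out and steer pre-mRNA splicing: the SR and hnRNP proteins, and the core proteins of the small nuclear ribonucleoprotein particles (snRNPs) that make up the spliceosome. They were chosen by name. All gene symbols in the count tables that begin with Srsf, Sfrs, Hnrnp, Hnrp, Snrp, Snrnp or Sf3 were taken, and Eftud2 and Prpf8 were added, which gave 61 of 23304 symbols. Of these 61 genes, 59 had enough reads to be tested. Srsf12 had between 0 and 2 reads in a library, and Snrpn had no read in any library, as had Snurf, whose exons overlap those of Snrpn. Sfrs18, Hnrpll and Hnrpdl are older symbols of the genes now called Pnisr, Hnrnpll and Hnrnpdl.

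Splicing removes introns through the ordered assembly of the U1, U2, U4, U5 and U6 snRNPs on the pre-mRNA. U1 pairs with the 5′ splice site and U2 with the branch site, after which the U4/U6.U5 tri-snRNP joins and is remodelled into the catalytic machine, with Prpf8 at its centre. SR proteins bind mostly exonic enhancers and favour use of nearby splice sites, whereas many hnRNP proteins bind silencers and oppose it. Zmynd11 encodes a chromatin reader of a methylated histone H3.3 found over transcribed gene bodies, and the U5 GTPase Eftud2 is a reported partner of its protein.

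The study sequenced RNA from NIH3T3 cells, an established mouse embryonic fibroblast line of Swiss albino origin, grown in medium with donor bovine serum. There were 8 libraries in 4 labelled groups of 2: wild-type (WT) cells without an agent at 0 h, WT cells after 2 h with mouse recombinant interferon-β (IFNβ) at 100 units/ml, and cells with a CRISPR knockout (KO) of Zmynd11 at the same times and doses. Whether the KO cells are 1 clone or a pool, and whether replicate libraries derive from separate cultures, is not in the labels, so the p-values below measure only the spread between these libraries, which may be technical.

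The level of the targeted gene went against the genotype labels. Levels are given as CPM, a gene's reads relative to the scaled library size, and are not adjusted for gene length. In WT 0 h Zmynd11 stood at 123 and 120.4 CPM, and in KO 0 h at 138 and 132 CPM. In WT 2 h it stood at 3.18 and 3.61 CPM, and in KO 2 h at 3.31 and 4.69 CPM. Low Zmynd11 thus went with the time label and not with the genotype label. The interferon-induced gene Ifit1 stood at 1.22 to 3.95 CPM in the 4 libraries labelled WT and at 196 to 396 CPM in the 4 labelled KO, and Isg15 at 3.51 to 5.16 CPM against 64.4 to 74.1 CPM. In these libraries the labelled time and the level of Zmynd11 cannot be told apart, nor can the labelled genotype and the level of these interferon-induced genes. Groups are therefore named below only as they are labelled. Were WT 2 h and KO 0 h swapped in the labelling, each value given as 2 h against 0 h would compare KO with WT, and each given as KO against WT would compare 2 h with 0 h. Whether they were swapped was not tested.

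Reads assigned to genes numbered 13671013 to 21299120 per library. The share of reads that fell outside annotated genes was 12.8% to 13.3% in 3 of the 4 libraries labelled 0 h, 17.3% in the library labelled KO 0 h replicate 2, and 15.8% to 17.2% in those labelled 2 h. That KO 0 h library also had reads on 17498 genes, against 14847 to 15945 in the other 7. Of 10 fibroblast markers, 9 averaged at least 1 CPM and Lum was near 0. Their summed level was 41300 to 46100 CPM in libraries labelled 0 h and 18600 to 20500 CPM in those labelled 2 h. The markers did not move alike. Col1a1 went from 8770 to 10800 CPM at 0 h to 865 to 991 CPM at 2 h. Fn1 overlapped, at 10500 to 12300 and 10500 to 12400 CPM. Thy1 was higher at 2 h, at 126 to 130 CPM against 95.5 to 107 CPM. Sums of 5 markers each were at most 5.3 CPM for epithelial and 3.27 CPM for neural cells, 2.41 to 5.08 CPM at 0 h and 12.2 to 14.7 CPM at 2 h for endothelial cells, and 27.4 to 61.2 CPM for leukocytes, of which Cd3e had no read. Of the endothelial markers, Vwf rose from 0.166 to 1.2 CPM at 0 h to 9.81 to 12.5 CPM at 2 h. Cdh5 was lower at 2 h, at 0.445 to 1.12 CPM against 1.56 to 1.8 CPM. By the GENCODE vM21 annotation, exons of 8 of the 61 genes overlap another gene in the tables, 7 of them on the opposite strand (Hnrnpab, Hnrnpk, Sf3a2, Sf3b3, Snrpa, Snrpd3 and Snrpf). Reads counted as ambiguous, 0.4886% to 0.5526% of each library, stand apart from the gene counts. The strand setting of the counting is not stated. It is therefore not known to which gene, if any, reads in the shared stretches were assigned.

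Most splicing genes had less RNA under the 2 h label than under the 0 h label, for both genotype labels. In the WT labels 39 of the 59 tested genes fell and 5 rose, and in the KO labels 43 fell and 2 rose, at a Benjamini-Hochberg adjusted p below 0.05. Among all 12807 genes tested, 61.2% were called in the WT labels (31.1% lower and 30.1% higher) and 61.1% in the KO labels (31.2% lower and 30% higher). The median log2 fold change of the splicing genes was -0.38 in the WT labels and -0.49 in the KO labels, beside 0.01 and -0.01 over all genes tested. In both comparisons 38 splicing genes fell, where 26.3% of all genes did, and 2 rose, where 24.6% did: Sfrs18 and Snrnp200. With library size alone in place of the scaling used here, the median of all genes moved to 0.15 and 0.14 and the calls to 37.7% higher and 23.9% lower in the WT labels and 37.7% and 23.7% in the KO labels. On that scale 30 splicing genes fell and 7 rose in the WT labels, and 38 fell and 4 rose in the KO labels. Most changes were under 2-fold. Only Hnrnpa1 fell at least 2-fold in the WT labels, and Hnrnpa1, Snrpe, Hnrnpd, Snrpb2 and Hnrpdl did in the KO labels, while no splicing gene rose 2-fold. Over all genes, 8.2% fell and 10.8% rose by at least 2-fold in the WT labels, and 8.42% and 10.7% in the KO labels.

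The summed reads of the 61 genes made up 1.58% and 1.64% of gene reads in WT 0 h, 1.4% and 1.33% in WT 2 h, 1.79% and 1.69% in KO 0 h, and 1.3% and 1.37% in KO 2 h. Every library labelled 0 h was above every library labelled 2 h. The summed fibroblast markers and, apart from KO 0 h replicate 2, the share of reads outside genes moved with the same labels, and their part in these changes was not tested. In bulk RNA, fewer cells of a type and less RNA per cell cannot be told apart. By class, SR genes went from 0.287% to 0.323% of gene reads at 0 h to 0.222% to 0.237% at 2 h, and hnRNP genes from 0.807% to 0.966% to 0.606% to 0.676%. Sm core genes held 0.06535% to 0.07214% at 0 h and 0.0507% to 0.05714% at 2 h. Genes of U2 with Sf3a and Sf3b held 0.217% to 0.226% at 0 h and 0.211% to 0.222% at 2 h, and the ranges of U1, of U5 and of U11/U12 genes overlapped as well. The overlaps of U1 and U2 rest on these unscaled shares. On the CPM scale used for the tests the summed level of U2 was 2256 to 2424 at 0 h and 2017 to 2121 at 2 h. That of U1 was 436 to 573 CPM and 337 to 413 CPM. Neither overlaps on that scale, while U5 (1498 to 1636 and 1494 to 1592 CPM) and U11/U12 (47.4 to 61.7 and 46.5 to 51.2 CPM) still overlapped. The classes were not tested against each other.

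**Figure D1:**
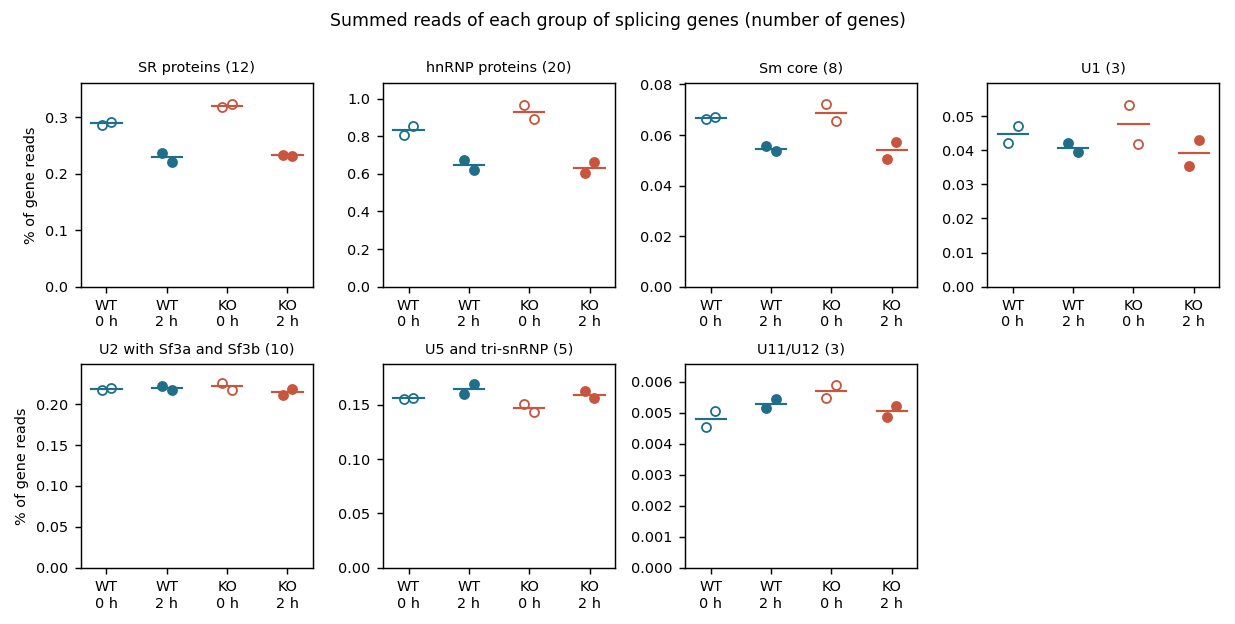
Share of gene reads (%, vertical axis) held by each class of splicing genes in each of the 8 libraries (points: open, labelled 0 h; filled, labelled 2 h), with the mean of each labelled group of 2 as a line and the number of genes in brackets. SR, hnRNP and Sm core genes are higher in every library labelled 0 h than in every library labelled 2 h, whereas the shares of the U1, U2, U5 and U11/U12 classes overlap. On the CPM scale the U1 and U2 classes do not.

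The median CPM of the 59 tested genes, averaged over libraries, was 164, against 29.3 for all genes tested, so most of them had more reads than the typical gene. The changes in the WT and in the KO labels share no library, and over the 59 genes they correlated with Pearson's r of 0.878 and Spearman's rho of 0.855. This is a description over genes, which are not independent replicates. The change was further below 0, or less above it, in the KO labels for 46 of the 59 and for 6548 of all 12807 genes tested, and for 33 of the 59 without KO 0 h replicate 1.

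**Figure D2:**
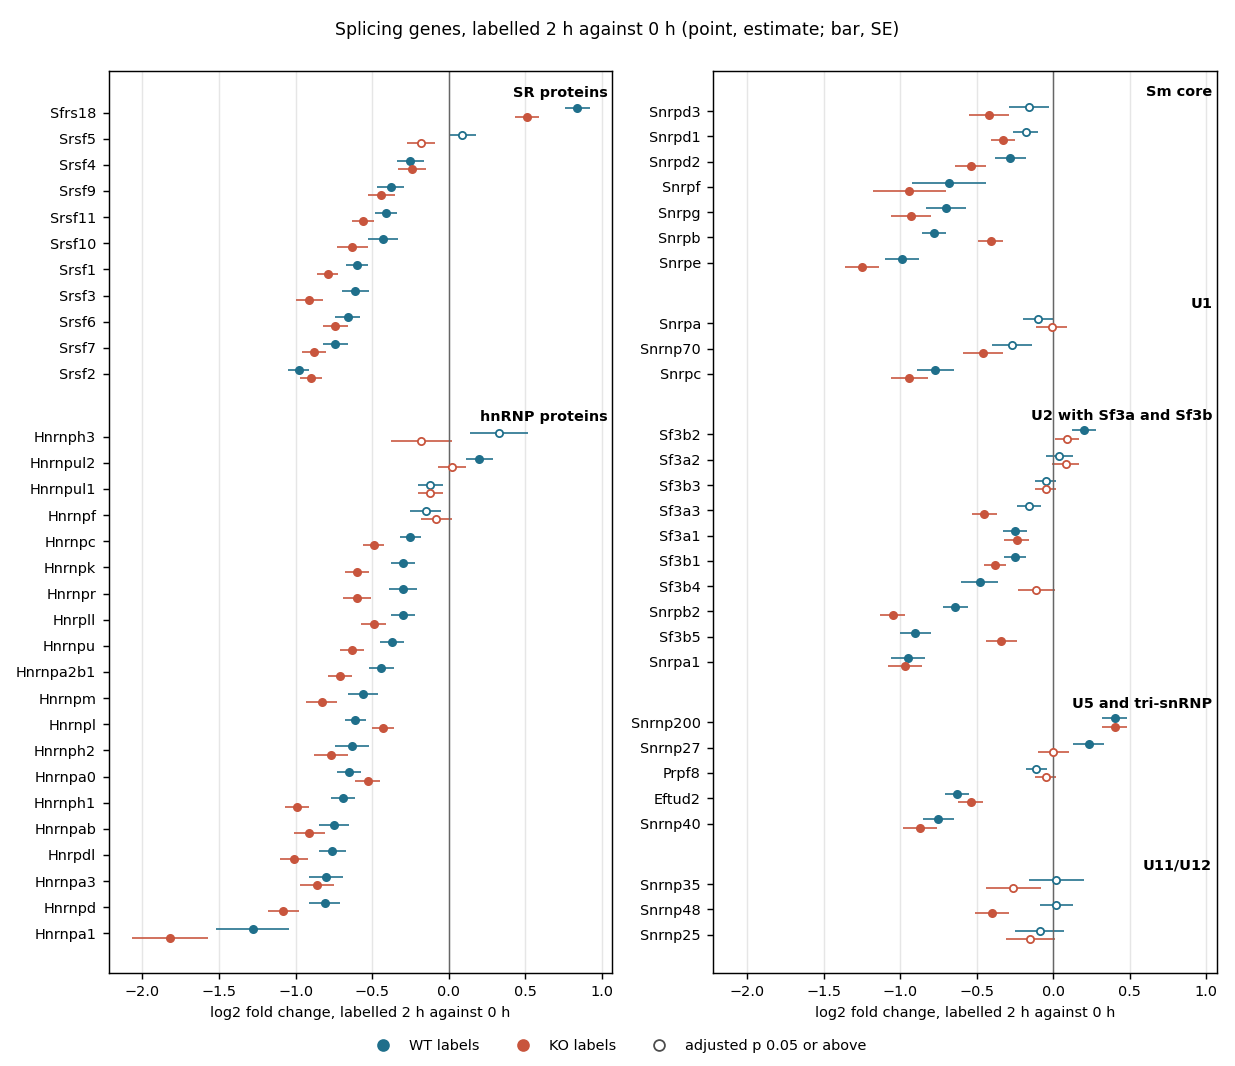
Log2 fold change of each tested splicing gene, labelled 2 h against 0 h, for the WT labels and the KO labels, grouped by class, with 1 SE as a bar. Most estimates lie below 0 in both, and Sfrs18 and Snrnp200 are the genes called higher in both.

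SR genes mostly fell. Of 11 tested SR genes, 9 fell and 1 rose under each genotype label, with median log2 fold changes of -0.43 and -0.63. Srsf2, a founding SR protein of nuclear speckles, stood at 490.2 and 487 CPM in WT 0 h, 240.2 and 256 CPM in WT 2 h, 490.4 and 509 CPM in KO 0 h, and 270.1 and 265 CPM in KO 2 h. The libraries labelled 0 h and 2 h did not overlap. Its log2 fold change was -0.98 (SE 0.07, adjusted p = 7.77e-11) in the WT labels and -0.90 (SE 0.07, adjusted p = 3.07e-10) in the KO labels. Srsf3, the smallest SR protein and one that also acts in mRNA export, stood at 179 and 168 CPM in WT 0 h, 124 and 103 CPM in WT 2 h, 199 and 217 CPM in KO 0 h, and 113 and 108 CPM in KO 2 h, again without overlap. Its log2 fold changes were -0.61 and -0.91. Srsf7, an SR protein with a zinc knuckle, changed by -0.74 and -0.88, Srsf6 by -0.66 and -0.74, and Srsf1, which promotes recognition of 5′ splice sites, by -0.60 and -0.79. The declines of Srsf10, Srsf11, Srsf9 and Srsf4 were smaller, from -0.43 to -0.25 in the WT labels and from -0.63 to -0.24 in the KO labels. With library size alone as the scaling, Srsf4 lost both calls (-0.11 and -0.09).

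Sfrs18 went the other way from the rest of its class. This gene encodes a nuclear protein rich in serine and arginine. It stood at 123 and 133 CPM in WT 0 h, 246 and 211 CPM in WT 2 h, 170.0 and 153 CPM in KO 0 h, and 231 and 228 CPM in KO 2 h. Every library labelled 2 h was above every library labelled 0 h, by a log2 fold change of 0.84 (SE 0.08, adjusted p = 1.45e-08) in the WT labels and 0.51 (SE 0.08, adjusted p = 2.02e-05) in the KO labels. Per read of Srsf2 there were 0.25 to 0.347 reads of Sfrs18 in libraries labelled 0 h and 0.823 to 1.02 at 2 h. Scaling between libraries does not affect this ratio. Both genes were picked for their changes, and Srsf2 fell, so the ratio cannot show that Sfrs18 itself rose. Per read of Srsf2, reads of Srsf5 also went up, from 0.337 to 0.48 at 0 h to 0.686 to 0.829 at 2 h. Srsf5 was not called in either comparison, at 0.09 (95% interval -0.10 to 0.28) and -0.18 (-0.37 to 0.01). With library size alone as the scaling, Srsf5 was called higher in the WT labels (0.23).

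The promoters of 4 genes are shown because they span the patterns seen: Srsf2 and Srsf3, which fell, Snrnp200, which rose, and Prpf8, which was not called. Each is the 200 bases before the gene's start in RefSeq (GRCm38.p6), 5′ to 3′ on the gene's strand, with matches to the motifs below in capitals. They lie at chr11:116853095-116853294 (minus strand), chr17:29032460-29032659 (plus), chr2:127208186-127208385 (plus) and chr11:75486577-75486776 (plus), in that order.
Srsf2: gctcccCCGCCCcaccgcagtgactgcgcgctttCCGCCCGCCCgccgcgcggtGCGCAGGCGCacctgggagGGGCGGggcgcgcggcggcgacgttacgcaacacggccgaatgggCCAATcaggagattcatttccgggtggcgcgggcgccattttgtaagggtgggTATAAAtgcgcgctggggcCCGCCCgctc
Srsf3: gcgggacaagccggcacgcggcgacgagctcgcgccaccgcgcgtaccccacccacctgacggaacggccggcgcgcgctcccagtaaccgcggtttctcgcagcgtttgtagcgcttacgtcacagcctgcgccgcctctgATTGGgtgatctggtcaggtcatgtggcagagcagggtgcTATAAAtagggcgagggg
Snrnp200: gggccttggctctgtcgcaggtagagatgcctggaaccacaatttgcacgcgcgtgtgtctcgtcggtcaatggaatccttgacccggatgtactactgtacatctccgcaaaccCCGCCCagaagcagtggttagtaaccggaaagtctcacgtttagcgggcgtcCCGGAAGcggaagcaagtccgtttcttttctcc
Prpf8: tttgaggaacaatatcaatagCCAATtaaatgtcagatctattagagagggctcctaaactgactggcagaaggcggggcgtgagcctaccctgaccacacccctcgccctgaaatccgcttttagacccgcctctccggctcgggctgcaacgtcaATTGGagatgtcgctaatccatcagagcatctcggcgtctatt

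Both SR genes printed here hold a TATAAA, starting 29 bases before the start in Srsf2 and 18 bases before it in Srsf3. The printed promoters of Snrnp200 and Prpf8 hold none. No TATAAA was found in the 250 bases before Srsf1, Srsf4, Srsf6, Srsf7, Srsf9, Srsf10 and Srsf11, which fell too. Srsf5 and Srsf12 held none either. A promoter window was at hand for 52 of the 61 genes, and 6 motifs were searched in the 250 bases before the start, on both strands and with overlapping matches allowed. The GC box GGGCGG was in 69.2% of the 52 windows and in 32.9% of all 27025 windows of the same length. The Ets core CCGGAAG was in 30.8% against 7.05%, and the motif of NRF1 in 11.5% against 3.86%. CCAAT was in 44.2% against 34.5%, TATAAA in 11.5% against 13%, and the E-box CACGTG in 5.77% against 6.05%. Of the 33 windows of genes that fell in both comparisons and the 19 windows of the other splicing genes, the GC box was in 24 of 33 and 12 of 19, the Ets core in 8 of 33 and 8 of 19, CCAAT in 16 of 33 and 7 of 19, and TATAAA in 3 of 33 and 3 of 19. The 19 include Srsf12 and Snrpn, which had too few reads to be tested, and genes called lower under 1 genotype label alone, such as Snrnp48. These matches describe the letters only and were not tested.

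**Figure D3:**
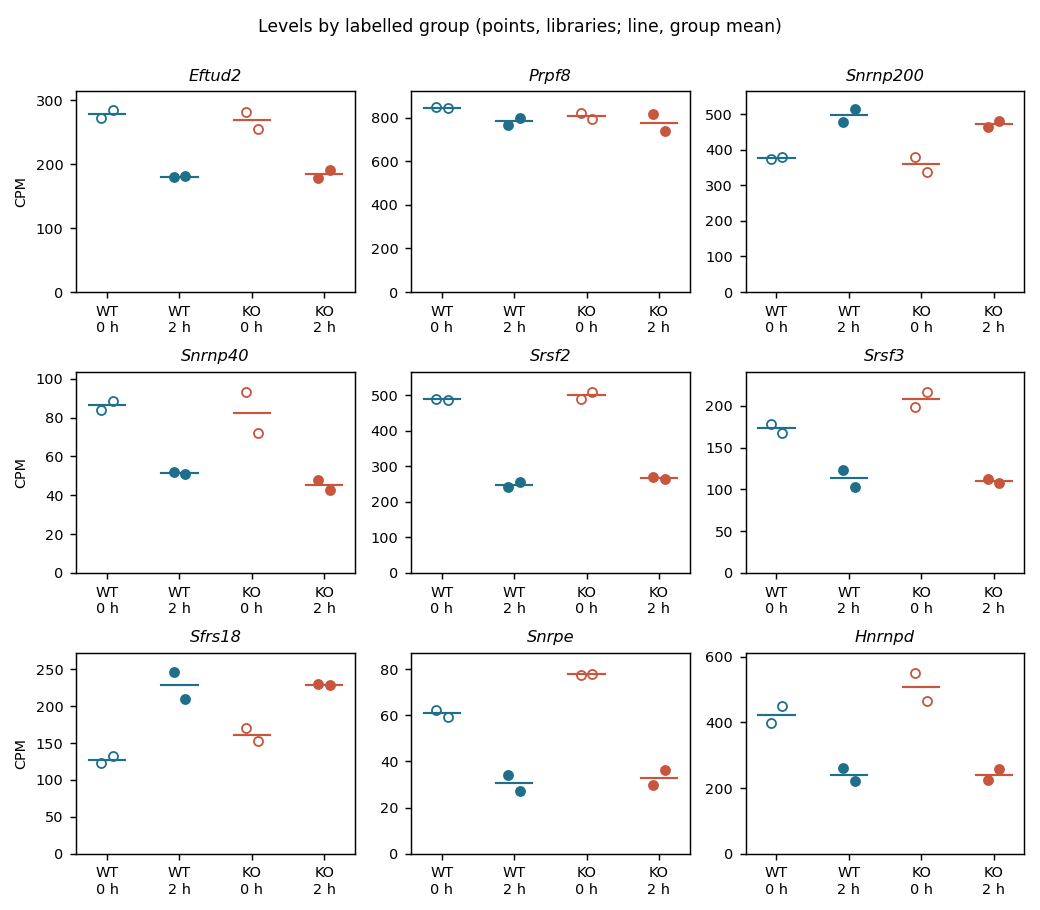
Levels of 9 splicing genes (CPM, vertical axis from 0) in each library by labelled group (points: open, labelled 0 h; filled, labelled 2 h), with the group mean as a line. Eftud2, Snrnp40, Srsf2, Srsf3, Snrpe and Hnrnpd are lower in the libraries labelled 2 h, Snrnp200 and Sfrs18 are higher, and Prpf8 is not called.

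Among the 20 hnRNP genes, all of which were tested, 16 fell and 1 rose in the WT labels, and 16 fell and none rose in the KO labels, with medians of -0.50 and -0.62. Hnrnpd, which binds AU-rich elements and influences mRNA decay, stood at 398 and 449 CPM in WT 0 h, 261 and 221 CPM in WT 2 h, 549 and 466 CPM in KO 0 h, and 225 and 257 CPM in KO 2 h. The time labels did not overlap, and the log2 fold changes were -0.81 (SE 0.10, adjusted p = 2.2e-07) and -1.08 (SE 0.10, adjusted p = 3.12e-09). Its relative Hnrpdl changed by -0.76 and -1.01. Hnrnph1, which binds runs of G, went from 656 to 858 CPM across the libraries labelled 0 h to 397 to 448 CPM across those labelled 2 h, with log2 fold changes of -0.69 and -0.99. Hnrnpa3 changed by -0.80 and -0.86. Hnrnpa2b1, an RNA-binding protein of the same family as Hnrnpa1, went from 1410 to 1776 CPM at 0 h to 997 to 1140 CPM at 2 h, changing by -0.44 and -0.71. Hnrnpl, which binds CA repeats, changed by -0.61 and -0.43. With library size alone as the scaling, Hnrnpk (-0.16), Hnrnpc (-0.11), Hnrpll (-0.16) and Hnrnpr (-0.16) lost their calls in the WT labels.

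Hnrnpa1, a classical repressor of exon inclusion, had the largest fold change of the 59 genes but a low and uneven count. It had 258 and 390 reads in WT 0 h, 128 and 111 in WT 2 h, 442 and 210 in KO 0 h, and 116 and 81 in KO 2 h. The log2 fold change was -1.28 (SE 0.24, adjusted p = 0.000244) in the WT labels and -1.82 (SE 0.25, adjusted p = 9.01e-06) in the KO labels. The gene has near-identical processed copies in the genome, and reads that mapped to several places, 14.1% to 17% of each library, stand apart from the gene counts in the tables, so its level is uncertain. Hnrnpf, Hnrnph3 and Hnrnpul1 were called in neither comparison. With library size alone as the scaling, Hnrnph3 was called higher in the WT labels (0.47). Hnrnpul2 rose in the WT labels by 0.20 (adjusted p = 0.0435), a call lost without WT 0 h replicate 1, WT 0 h replicate 2 or WT 2 h replicate 1 (adjusted p = 0.0878 to 0.328), and stood at 0.02 in the KO labels.

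The Sm core proteins form the ring that encircles most spliceosomal snRNAs. Of 7 tested Sm genes, 5 fell in the WT labels and all 7 fell in the KO labels, with medians of -0.68 and -0.54. Snrpe stood at 62.5 and 59.5 CPM in WT 0 h, 34.3 and 27.3 CPM in WT 2 h, 77.7 and 78.1 CPM in KO 0 h, and 29.6 and 36.2 CPM in KO 2 h. The time labels did not overlap, and its log2 fold change was -0.99 (SE 0.11, adjusted p = 7.28e-08) and -1.25 (SE 0.11, adjusted p = 1.59e-09). Snrpg changed by -0.70 and -0.93, and Snrpd2 by -0.28 and -0.54. Snrpb, which encodes the Sm protein B, fell by 0.78 and by 0.41. Snrpd1 and Snrpd3 were called in the KO labels alone, at -0.33 and -0.42, and stood at -0.18 and -0.16 in the WT labels. With library size alone as the scaling, Snrpd1 lost its call in the KO labels (-0.18), and Snrpd2 (-0.14) and Snrpf (-0.54) lost theirs in the WT labels. Snrpf had only 51 to 142 reads in a library. It changed by -0.68 and -0.94, and its change in the WT labels was -0.26 (adjusted p = 0.406) without WT 2 h replicate 1 and -0.53 (adjusted p = 0.145) without WT 0 h replicate 2.

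Of the 3 U1 genes, Snrpc, needed for stable 5′ splice site contact, stood at 28.5 and 26.3 CPM in WT 0 h, 17.1 and 15.1 CPM in WT 2 h, 30.4 and 30.1 CPM in KO 0 h, and 15.1 and 16.6 CPM in KO 2 h. It fell by 0.77 and 0.94 on the log2 scale. Snrpa was called in neither comparison. Snrnp70 stood at -0.27 (adjusted p = 0.0896) in the WT labels and -0.46 (adjusted p = 0.00694) in the KO labels, a call that was lost without KO 0 h replicate 1, at -0.20, or without KO 2 h replicate 1, at -0.29, and with DESeq2 (adjusted p = 0.0622). Of the 10 U2 genes, 6 fell and 1 rose in the WT labels, and 6 fell and none rose in the KO labels. Snrpa1 and Snrpb2, a pair of proteins bound to one stem-loop of U2, fell in both comparisons: Snrpa1 from 87.8 to 107 CPM at 0 h to 43.8 to 59.9 CPM at 2 h, and Snrpb2 from 80.1 to 102 CPM to 47.3 to 52.1 CPM. Their log2 fold changes were -0.95 and -0.97 for Snrpa1 and -0.64 and -1.05 for Snrpb2.

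Subunits of SF3A and SF3B, which hold U2 at the branch site, ranged from a fall to a small rise. Sf3b1, the large subunit that contacts the branch site, changed by -0.25 and -0.38. The small subunit Sf3b5 stood at 72.8 and 66.8 CPM in WT 0 h, 33.5 and 41.5 CPM in WT 2 h, 55.5 and 56.7 CPM in KO 0 h, and 42.4 and 46.4 CPM in KO 2 h, so its fall was -0.90 in the WT labels and -0.34 in the KO labels. Sf3b4 was called in the WT labels alone (-0.48, against -0.11), and Sf3a3 in the KO labels alone (-0.45, against -0.16). Sf3b2 rose by 0.20 (adjusted p = 0.0377) in the WT labels, a call lost with any 1 of the 4 WT libraries left out (adjusted p = 0.0596 to 0.25), and stood at 0.09 in the KO labels. Sf3b3 and Sf3a2 were called in neither comparison, and Sf3a1 fell in both, by 0.25 and 0.24. With library size alone as the scaling, Sf3a1 lost both calls (-0.11 and -0.09). On that scale Sf3b1 lost its call in the WT labels (-0.11) and Sf3b5 in the KO labels (-0.19), while Sf3b2 and Sf3a2 were called higher in the KO labels (0.24 and 0.23).

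The U5 and tri-snRNP genes moved in both directions, although their proteins sit in one complex. Eftud2 stood at 273 and 285 CPM in WT 0 h, 179.7 and 182 CPM in WT 2 h, 282 and 255 CPM in KO 0 h, and 179.1 and 190.3 CPM in KO 2 h. The time labels did not overlap, and its log2 fold change was -0.63 (SE 0.08, adjusted p = 2.51e-07) in the WT labels and -0.54 (SE 0.08, adjusted p = 2.21e-06) in the KO labels. Snrnp40, a WD-repeat protein of U5, fell by 0.75 and 0.87, from 71.9 to 93.2 CPM at 0 h to 42.7 to 51.8 CPM at 2 h. Snrnp200, the helicase that unwinds U4 from U6, rose. It stood at 374 and 379 CPM in WT 0 h, 479 and 513 CPM in WT 2 h, 379 and 338 CPM in KO 0 h, and 465 and 482 CPM in KO 2 h. Its log2 fold change was 0.40 (SE 0.08) in both, with adjusted p = 8.88e-05 and 9.41e-05. Snrnp27 was called higher in the WT labels alone, at 0.23 (adjusted p = 0.0477), against 0.00 in the KO labels, and the call was lost without WT 0 h replicate 1, WT 0 h replicate 2 or WT 2 h replicate 1 (adjusted p = 0.148 to 0.243).

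Prpf8, the scaffold of the catalytic centre, stood at 846 and 842 CPM in WT 0 h, 766 and 799 CPM in WT 2 h, 819 and 791 CPM in KO 0 h, and 815 and 736 CPM in KO 2 h. The groups overlapped in the KO labels. Its log2 fold change was -0.11 (95% interval -0.26 to 0.04, adjusted p = 0.207) in the WT labels and -0.05 (-0.21 to 0.10, adjusted p = 0.547) in the KO labels. With library size alone the sign turned, to 0.03 and 0.10. Read ratios within a library, which do not depend on scaling, show the same split. There were 0.73 to 0.754 reads of Eftud2 per read of Snrnp200 in the 4 libraries labelled 0 h and 0.354 to 0.395 in the 4 labelled 2 h. Per read of Prpf8 there were 0.322 to 0.345 reads of Eftud2 at 0 h and 0.22 to 0.258 at 2 h.

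The U11/U12 snRNP proteins of the minor spliceosome, which removes a rare class of introns, were low and changed little. None of the 3 genes was called in the WT labels. In the KO labels Snrnp48 fell by 0.40 (SE 0.11, adjusted p = 0.00295), from 37.9 and 43.4 CPM to 30.2 and 31.7 CPM. With library size alone as the scaling, this call of Snrnp48 was lost (-0.25, adjusted p = 0.0557). In the WT labels it stood at 29.8 and 33.2 CPM and then 32.5 and 31.5 CPM, which overlap. Snrnp25 and Snrnp35 stood at 6.65 to 12.4 CPM in all libraries.

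The rest of the splicing machinery gave a mixed picture. A further 126 genes in 11 lists were examined, of which 125 were in the tables (Lsm8 was not) and 122 were tested (Srpk3, Esrp1 and Esrp2 were not). In the WT labels 57 of the 122 fell and 26 rose, and in the KO labels 65 fell and 18 rose. Among all genes tested 31.1% fell and 30.1% rose in the WT labels, and 31.2% fell and 30% rose in the KO labels. The lists are small, and their counts were not tested against these shares. In the U6-binding Lsm ring 5 of 6 genes fell under each genotype label, with Lsm3 at -1.40 and -1.80 and Lsm6 at -1.37 and -1.55. Of 22 other splicing regulators, 14 fell and 5 rose in the WT labels and 15 fell and 3 rose in the KO labels. Among these, Rbm10 changed by -0.99 and -0.86, Rbmx by -0.83 and -0.95, and Rbm5 by 0.50 and 0.41. The 10 genes of U2AF and branch site recognition gave 6 falls under each label, with U2af1 at -0.83 and -0.75 and Dhx15 at -0.57 and -0.76, and 1 rise in the WT labels, Smndc1 at 0.42. Of 12 genes of SMN and snRNP assembly, 7 fell and 1 rose under each label, with Wdr77 at -0.81 and -0.80. The gene that rose was the snRNP import adaptor Snupn in the WT labels (0.47) and Gemin7 in the KO labels (0.40, against -0.28 in the WT labels). Exon junction complex genes fell in 4 of 9 and 6 of 9 cases, with Magoh at -0.52 and -0.73, and 1 rose in the KO labels, Acin1 at 0.21.

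The remaining lists moved in both directions. Some of their counts, such as 3 falls and 3 rises among 9 U1-associated genes in the WT labels, lie near the shares of all genes. Of 9 genes of catalysis and release, 5 rose and 1 fell in the WT labels, and 3 rose and 1 fell in the KO labels. The second-step factor Slu7 changed by 0.56 and 0.33, Tfip11 by 0.23 and 0.37, and the helicase Dhx16 by -0.34 and -0.28. Of 15 genes of the Prp19 complex and activation, 7 fell and 4 rose in the WT labels, and 7 fell and 2 rose in the KO labels, with Syf2 at 0.91 and 0.59, Rbm22 at 0.40 and 0.60, Prpf19 at -0.73 and -0.50, and Isy1 at -0.71 and -0.74. Of 12 tri-snRNP and U4/U6 genes, 5 fell and 2 rose, then 7 fell and 2 rose. The U5 protein Txnl4a was at 0.57 and 0.61 and the cyclophilin Ppih at -0.73 and -0.79. Among 9 U1-associated genes, 3 fell and 3 rose, then 4 fell and 2 rose, with Prpf40b at 0.44 and 0.62, Tial1 at -0.35 and -0.49, Luc7l at -0.32 in both, and Prpf39 at -0.29 and -0.51. Of 12 SR kinases and SR-like genes, 3 fell and 3 rose, then 3 fell and 2 rose. The SR-like Tra2b changed by -0.81 and -1.04, and the kinases Srpk2 by 0.58 and 0.40 and Clk3 by 0.41 and 0.54. The 6 U11/U12 partners gave 2 falls and 2 rises, then 4 and 2, with Zcrb1 at -0.49 and -0.81, Zmat5 at 0.87 and 0.60, and Zrsr1 at 0.43 and 0.70.

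Between genotype labels the splicing genes differed little. In the libraries labelled 0 h, 2 of the 59 genes were called in KO against WT, where 3.92% of all genes were called and 2.65% were higher. Sfrs18 was higher by 0.34 (adjusted p = 0.0258), and Snrpb2 by 0.29 (adjusted p = 0.0459), with 80.9 and 80.1 CPM in WT 0 h and 95.4 and 102 CPM in KO 0 h. No splicing gene was called lower. An unadjusted p below 0.05 was found for 23 of the 59 and for 2615 of all 12807 genes, and for 7 of the 59 without WT 0 h replicate 1. Of the 59 estimates, 47 were above 0, with a median of 0.15 beside 0.01 over all genes. Leaving out WT 0 h replicate 1 brought that median to 0.09, leaving out KO 0 h replicate 1 brought it to 0.01, with 29 of 59 below 0, and leaving out KO 0 h replicate 2, the library with more reads outside genes, brought it to 0.21. Without WT 0 h replicate 1 or WT 0 h replicate 2 no splicing gene was called. The call of Sfrs18 was also lost without KO 0 h replicate 1 (0.22, adjusted p = 0.123), and that of Snrpb2 with any 1 of the 4 libraries left out (0.24 to 0.30) and with DESeq2 (adjusted p = 0.0525). Eftud2 stood at -0.06 (95% interval -0.21 to 0.10) and Prpf8 at -0.07 (-0.22 to 0.08). Of the 122 genes in the further lists, those called at 0 h included Luc7l3 (0.41), Rbm25 (0.38), Smndc1 (0.38), Ptbp3 (0.32) and Qk (0.27), which were higher, and Gemin7 (-0.47), which was lower.

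At the 2 h label, none of the 59 splicing genes was called between KO and WT by edgeR's quasi-likelihood test, or by DESeq2, where 1.6% of all genes were called by edgeR. Estimates ranged from -0.25 to 0.24 around a median of 0, and 1 had an unadjusted p below 0.05. Eftud2 stood at 0.03 (95% interval -0.13 to 0.19) and Prpf8 at -0.01 (-0.17 to 0.14).

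**Figure D4:**
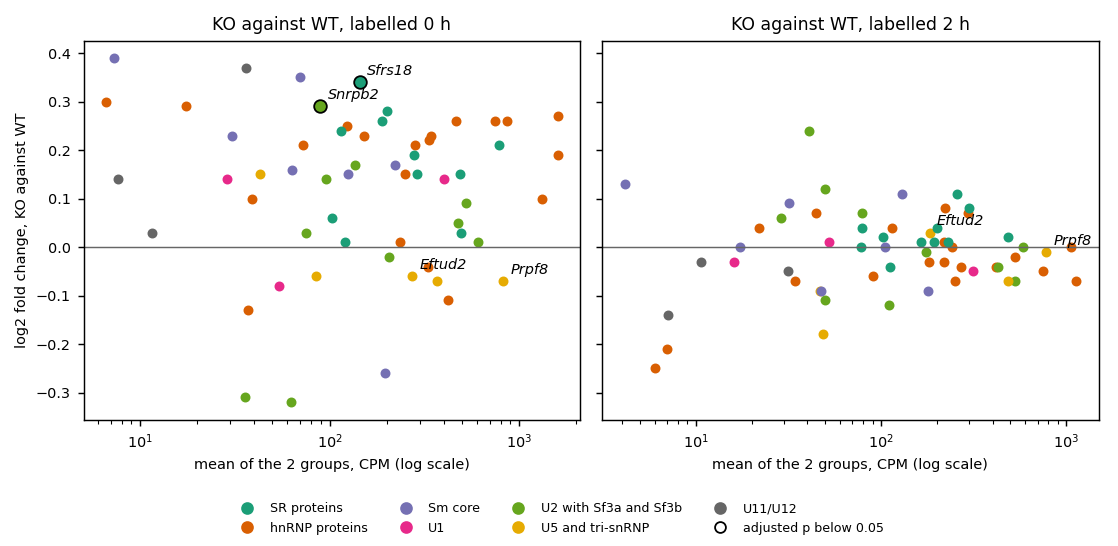
Log2 fold change of each tested splicing gene, KO against WT, against its mean level (CPM, log scale), for libraries labelled 0 h (left) and 2 h (right), with colours for the classes and a black outline for an adjusted p below 0.05. At 0 h 47 of 59 genes lie above 0 and Sfrs18 and Snrpb2 are called; at 2 h none is called.

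Whether the change between time labels differed between genotype labels was tested as an interaction. None of the 59 genes was called by edgeR or by DESeq2, where 0.133% of all genes were called by edgeR. An unadjusted p below 0.05 was found for 15 of the 59 and for 1637 of all 12807 genes. With 1 library left out, the 15 became 3 (without WT 2 h replicate 1), 4 (without WT 0 h replicate 1), 7 (without KO 0 h replicate 1), 8 (without KO 2 h replicate 1) or 27 (without KO 0 h replicate 2), and 11 to 20 without each of the other 3. The estimates had a median of -0.17, beside -0.01 over all genes. The median was -0.05 without KO 0 h replicate 1, with 33 of 59 below 0, and -0.11 to -0.24 with any other library left out. They ran from -0.54 for Hnrnpa1 to 0.56 for Sf3b5. Sf3b5 (adjusted p = 0.153) and Snrpb (0.37, adjusted p = 0.244) fell less in the KO labels by estimate, and Snrpb2 (-0.41, adjusted p = 0.199) fell more. The 9 genes called under 1 genotype label alone, namely Snrpd1, Snrpd3, Snrnp48, Snrnp70, Sf3a3, Sf3b4, Sf3b2, Hnrnpul2 and Snrnp27, are therefore not shown to differ between the labels.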

How the data were processed

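RNA was extracted with TRIzol and sequenced in pairs. The submitters' processing notes name bcl2fastq 2.15, STAR 2.5.2b, HTSeq and the build mm9, but not what each was used for. The sources used here state neither the annotation that was counted nor the strand setting. The authors deposited 1 table of raw read counts per gene for each library. The 4 summary lines of each table were left out.

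Counts were scaled by TMM, genes under 10 reads were filtered (filterByExpr, minimum total 15), and edgeR 4.0.16 (R 4.3.3) quasi-likelihood tests were fitted to all 8 libraries with 1 coefficient per group. Benjamini-Hochberg adjustment ran over all 12807 genes, and a gene is called below 0.05. The tests were run on simulated counts drawn with the spread estimated from these same data. That run cannot show whether the estimated spread is right. At this depth 1 read equals 0.046 to 0.07 CPM, and 3 reads, the limit used for a count of 0, equal 0.138 to 0.21 CPM, covering counting error only.

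Members and lists were chosen with earlier results of these data known. Named in each class were the called genes with the largest fold changes, up to 4 in each direction, with the values of all libraries for the largest 1 or 2, and Prpf8, Eftud2, Zmynd11, Ifit1 and Isg15 always. Of each other list, the called gene with the largest change in each direction of the 2 h against 0 h comparisons was named. Hnrnpl, Hnrnpa2b1 and the genes called under 1 label alone were added after their values were seen. Replicates of a group differed beyond sampling noise (chi-square per degree of freedom 2.94 to 9.18). Alternatives included DESeq2 1.42.0, other scalings and filters, and leaving out each library.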

Additional observations from a re-analysis of the deposited data

How the results depend on the processing

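Over 741 alternative values of the named genes, 671 kept their direction and side of the threshold, 62 lost the call and 8 changed sign. The number of called splicing genes in the WT labels (44) and KO labels (45) fell to 11 and 18 of 59 when tested against a fold of 1.5. Against that fold 22.9% and 23.5% of all genes were called. With 1 library of the compared groups left out, the median of the splicing genes ran from -0.41 to -0.29 in the WT labels. In the KO labels it ran from -0.56 to -0.42. With library size alone in place of TMM, the median of all genes moved to 0.15 and 0.14, the split of calls to 37.7% higher and 23.9% lower (WT) and 37.7% and 23.7% (KO), the splicing genes to 30 lower and 7 higher and to 38 and 4, and Prpf8 to 0.03 and 0.10. With a library left out, Prpf8 ran from -0.10 to 0.04 in the KO labels. In KO against WT at 0 h (2 called) the count was 1 with RLE factors and with library size alone, 6 without a filter and in a fit of those libraries only, 0 against a fold of 1.5, and 0 to 5 with a library left out (0 without either WT 0 h library, 5 without KO 0 h replicate 2), with Eftud2 at -0.17 to 0.01. At 2 h it was 0 throughout, with Prpf8 at -0.10 to 0.05 and Eftud2 at -0.02 to 0.06 over the libraries left out. Of all genes, 3.88% were called in KO against WT at 0 h with RLE factors and 3.87% with library size alone. The share at 0 h was 4.14% without a filter, 4.79% in a fit of the compared libraries only and 0.859% against a fold of 1.5. The interaction gave 1 call among the splicing genes without a filter, where 0.578% of all genes were called. With a library left out, its estimate for Prpf8 ran from -0.03 to 0.12. The cause was not tested. With the replicate number as a block, 41 splicing genes were called in the WT labels, 45 in the KO labels and 1 in KO against WT at 0 h. Of all genes 59.1%, 59.2% and 2.51% were called there. The WT calls of Sf3b2, Hnrnpul2 and Snrnp27 were lost with this block (adjusted p = 0.0578, 0.0618 and 0.0608). Same-numbered libraries did not deviate together over genes (r from -0.0533 to -0.0053). With 2 libraries in a group this cannot show whether same-numbered libraries were handled together, and the labels do not say what the number marks. A comparison chosen after seeing the data, KO 2 h against WT 0 h without the groups whose labels Zmynd11 goes against, called 43 splicing genes lower and 3 higher, with a median of -0.37. Of the 12564 genes tested there, 32.9% were lower and 32.6% higher, with a median of 0.01.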
